A study of Mus musculus with 14 samples.

Results

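NF-κB is a family of dimeric transcription factors that drives inflammatory, survival and cytokine genes. In an unstimulated cell the dimers are held in the cytoplasm by IκB proteins. Receptors for cytokines, microbial products and antigen activate IκB kinases, the IκB protein is degraded and the dimer enters the nucleus, where its targets include the genes of its own inhibitors. In mast cells, the granule-filled cells of skin that respond to IgE and antigen, to IL-33 and to neuropeptides, this pathway is known for its part in cytokine production.

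The 10 genes described here were chosen by name, among 55487 genes in the count table. The 5 DNA-binding subunits are Nfkb1 (p105, processed to p50), Nfkb2 (p100, processed to p52), Rel (c-Rel), Rela (p65) and Relb. The 5 inhibitors are the cytoplasmic IκB proteins Nfkbia (IκBα), Nfkbib (IκBβ) and Nfkbie (IκBε), the nuclear IκB-like protein Nfkbiz (IκBζ), which can also act as a co-activator, and Tnfaip3 (A20), an enzyme that edits ubiquitin chains upstream of the kinases. All 10 were among the 21014 genes that passed the filter on low counts.

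The genes are spread over 8 chromosomes (first to last exon base in the deposited table, mm10, which is GRCm38). The subunit genes lie at chr3:135584655-135691547 (Nfkb1), chr19:46304320-46312385 (Nfkb2), chr11:23736847-23770970 (Rel), chr19:5637483-5648130 (Rela) and chr7:19606217-19629438 (Relb). The inhibitor genes lie at chr12:55489410-55492647 (Nfkbia), chr7:28758251-28767512 (Nfkbib), chr17:45555703-45563169 (Nfkbie), chr16:55811375-55838899 (Nfkbiz) and chr10:19000910-19015657 (Tnfaip3). Counts are of reads over all exons listed for a gene, so isoforms were not separated.

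RNA was measured in 14 libraries of mast cells from mouse ear skin, each made by SMART-Seq HT from a sorted pool of at most 100 cells. Resident mast cells came from untreated mice (5 libraries, numbers 1 to 5) and from mice treated with MC903 (5 libraries, numbers 6 to 10). MC903 is calcipotriol, a vitamin D analogue that causes a dermatitis when painted on skin. The remaining 4 libraries (numbers 11, 13, 14 and 15) carry the label "bone marrow" mast cells from MC903-treated mice. The labels' protocol speaks of integrin β7+ mast cells collected from the ears, and no label states how the 2 names relate. Strain, age, dose, duration of treatment and the number of mice behind each library were not given in the sources used here, so p-values measure the spread between these libraries, which may in part be technical.

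The untreated libraries held 17706764 to 27068993 counts each. Totals were 13068078 to 25287381 for the MC903 resident group and 19978811 to 31781926 for the bone marrow group. The lowest count of any member in any library was 517 reads, for Relb in library 13. All 8 mast cell markers examined were detected in every group, with summed levels of 82148 to 107873, 102228 to 157338 and 100489 to 152278 CPM (counts scaled to the library total) in the same order of groups. Genes detected ranged from 21874 to 25244 in untreated libraries. They numbered 28790, 34560 and 35246 in MC903 resident libraries 6, 7 and 8, against 23941 and 22632 in libraries 9 and 10. Bone marrow library 15 had 32814 genes detected, against 16025 to 19817 in the other 3. Its summed level of 7 macrophage and dendritic cell markers was 7824 CPM, with Lyz2 at 4789 CPM and Cd68 at 817 CPM, against 78.2 to 338 CPM in libraries 11, 13 and 14, 57.4 to 130.3 CPM in untreated and 53.5 to 171 CPM in MC903 resident libraries. In bone marrow library 11 the summed level of 5 basophil markers was 1610.2 CPM, with Mcpt8 at 979 CPM, against 337 to 823 CPM in libraries 13, 14 and 15, 562 to 845 CPM in untreated and 538 to 794 CPM in MC903 resident libraries. Summed neutrophil, T cell, keratinocyte, fibroblast and endothelial cell markers reached at most 74.2, 84.1, 12.2, 31.6 and 39.9 CPM in any library. The mitochondrial share of counts was 1.22% to 1.70% in untreated, 2.39% to 3.96% in MC903 resident and 2.14% to 4.24% in bone marrow libraries, so that it separated untreated libraries from both other groups. The part of these differences in the results on the NF-κB genes was not tested.

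Several NF-κB genes are textbook targets of NF-κB itself, and their start sites were therefore read for the κB consensus on both strands. RefSeq windows of 250 bases before to 50 after the start (GRCm38.p6) matched 7 of the 10 genes, in 10 windows. Those of Nfkb1, Relb and Nfkbiz were not matched. The consensus was found in 6 windows, belonging to Nfkb2, Rel, Nfkbia and Tnfaip3, and not in the windows of Rela, Nfkbib and Nfkbie. Across all 32851 RefSeq windows of that length, 5.805% held it. A match of letters is a description and not evidence of binding. The following 30-base stretches show each match in capitals, written 5′ to 3′ on the gene's strand.

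Nfkbia, chr12:55492657-55492686, minus strand, match 29 bases before the start: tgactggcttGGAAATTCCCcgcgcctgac

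Tnfaip3, chr10:19015403-19015432, minus strand, 12 bases before the start: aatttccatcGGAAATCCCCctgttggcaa

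Rel, chr11:23771042-23771071, minus strand, 92 bases before the start: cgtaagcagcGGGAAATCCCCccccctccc

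Nfkb2, chr19:46304688-46304717, plus strand, 39 bases before the start: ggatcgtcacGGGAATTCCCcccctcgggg

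Nfkb2, chr19:46304716-46304745, plus strand, 11 bases before the same start: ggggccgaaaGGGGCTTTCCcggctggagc

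Nfkb2, chr19:46305695-46305724, plus strand, 11 bases after another RefSeq start and 225 bases before the third: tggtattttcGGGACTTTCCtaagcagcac

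In Rel the 11 capitals are 2 overlapping matches. The matches of Nfkbia, an inhibitor, and Rel, a subunit, are also shown in the longer stretch upstream of each gene, at chr12:55492649-55492897 and chr11:23770971-23771219, both on the minus strand, so that the surrounding sequence can be read.

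Nfkbia upstream: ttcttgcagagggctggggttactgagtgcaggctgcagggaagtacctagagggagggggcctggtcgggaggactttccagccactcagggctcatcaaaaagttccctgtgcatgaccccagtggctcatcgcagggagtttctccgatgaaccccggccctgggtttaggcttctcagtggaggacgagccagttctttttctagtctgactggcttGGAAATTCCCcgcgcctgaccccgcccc

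Rel upstream: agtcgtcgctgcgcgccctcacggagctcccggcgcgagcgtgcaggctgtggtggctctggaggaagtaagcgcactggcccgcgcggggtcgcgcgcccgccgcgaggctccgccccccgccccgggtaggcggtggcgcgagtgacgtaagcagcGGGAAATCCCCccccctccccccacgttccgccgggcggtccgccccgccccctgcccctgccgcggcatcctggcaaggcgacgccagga

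Levels of different genes were compared as CPM per kilobase of the deposited gene length. In untreated resident cells the inhibitors led: Nfkbia was at 790.1 ± 335 CPM per kilobase (SD, n = 5), followed by Nfkbiz at 589 ± 82.1 and Tnfaip3 at 303 ± 84.5. Rela was the highest subunit at 113 ± 14.8 CPM per kilobase. Below it came Nfkbib (81.9), Nfkb2 (44.5), Nfkbie (41.8), Relb (40.0), Nfkb1 (35.1) and Rel (27.3 CPM per kilobase). Neighbours in this order overlapped between libraries except Nfkbiz against Tnfaip3 and Tnfaip3 against Rela.

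After MC903 the resident cells had Nfkbia at 416, Nfkbiz at 251 and Tnfaip3 at 129 CPM per kilobase. Only the gap between Tnfaip3 and Rela (48.0) was then free of overlap among neighbours, and Nfkbiz and Tnfaip3 now overlapped. In the bone marrow group the order was Nfkbia (749.5), Tnfaip3 (284), Nfkbiz (194), Nfkbie (81.5), Rela (49.1), Nfkbib (48.9), Nfkb1 (23.9), Nfkb2 (19.6), Relb (18.9) and Rel (9.41 CPM per kilobase). Neighbours were free of overlap at 3 steps, Nfkbia to Tnfaip3, Nfkbiz to Nfkbie and Nfkbib to Nfkb1. Tnfaip3 stood above Nfkbiz, although their libraries overlapped, and Nfkbie stood above Rela, also with overlap.

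The MC903 resident group was first set against untreated resident cells. NF-κB subunits and inhibitors were lower together: 8 of the 10 genes fell, none rose, and all 10 estimates were negative. The genes that fell were Nfkb1, Nfkb2, Rel, Rela, Nfkbia, Nfkbib, Nfkbiz and Tnfaip3, by 1.89-fold to 2.67-fold. The median log2 fold change of the 10 was -1.23, against 0.24 over all genes tested. The mitochondrial share of counts, given above, was likewise without overlap between these 2 groups, and its part in the result was not tested. Of all genes tested, 2.25% were called in this comparison, 0.571% higher and 1.68% lower (edgeR's quasi-likelihood test at an adjusted p under 0.05, with the Benjamini-Hochberg correction over the 21014 genes). The split was 120 higher and 353 lower with TMM, 207 and 294 with DESeq2 size factors, and 250 and 266 with TMM from abundant genes. MC903 libraries lay below every untreated library for 8 of the 10 genes, the exceptions being Nfkbia and Nfkbie, against 3.2% of all genes.

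Rela encodes p65, the subunit with the strong activation domain. Its levels were 407, 325, 378, 341 and 290.3 CPM in untreated libraries 1 to 5, and 140.0, 136, 105, 181 and 175 CPM in MC903 libraries 6 to 10. Every MC903 library lay well below the lowest untreated one, and libraries 9 and 10 were the highest of the 5. The log2 fold change was -1.23 ± 0.178 (SE), or 2.35-fold lower, with an edgeR adjusted p of 0.000425.

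Nfkb1 provides p50, the common partner of p65. It was at 500.3, 388, 359, 451 and 418 CPM in untreated libraries and at 157, 189, 170.1, 258 and 254 CPM after MC903. The groups did not overlap, and libraries 9 and 10 again stood above 6 to 8. The log2 fold change was -1.04 ± 0.181 (edgeR adjusted p = 0.00227).

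Rel encodes c-Rel, a subunit best known in lymphocytes. Untreated libraries held 279, 196, 207, 192 and 147 CPM, and MC903 libraries 61.1, 86.5, 58.5, 88.2 and 118 CPM. The groups did not overlap, and the log2 fold change was -1.30 ± 0.263 (edgeR adjusted p = 0.00715).

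Nfkb2 and Relb form the p52 and RelB dimer of the non-canonical arm. Nfkb2 was at 275, 181, 219, 233 and 111 CPM in untreated libraries and at 69.0, 75.6, 63.3, 75.0 and 108 CPM after MC903, so that library 10 came close to untreated library 5. Its log2 fold change was -1.38 ± 0.254 (edgeR adjusted p = 0.00342). Relb was at 200.3, 149.9, 154, 163 and 111 CPM in untreated and at 60.3, 35.1, 43.9, 105 and 75.9 CPM in MC903 libraries. The Relb groups did not overlap, but its estimate of -1.28 ± 0.357 did not pass (edgeR adjusted p = 0.0677). It passed in 4 of 8 alternatives, with no filter, with only the 2 groups fitted, in the DESeq2 Wald test and in limma voom, with adjusted p from 0.000356 to 0.630 over the 8. Exons of the opposite strand cover 11.6% (AC114539.1) and 6.52% (Psd) of the Nfkb2 exon length, and 14.5% (Ccer2) and 1.94% (Sirt2) of that of Nfkbib, and whether counting used strand is not given in the sources used here.

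**Figure D1:**
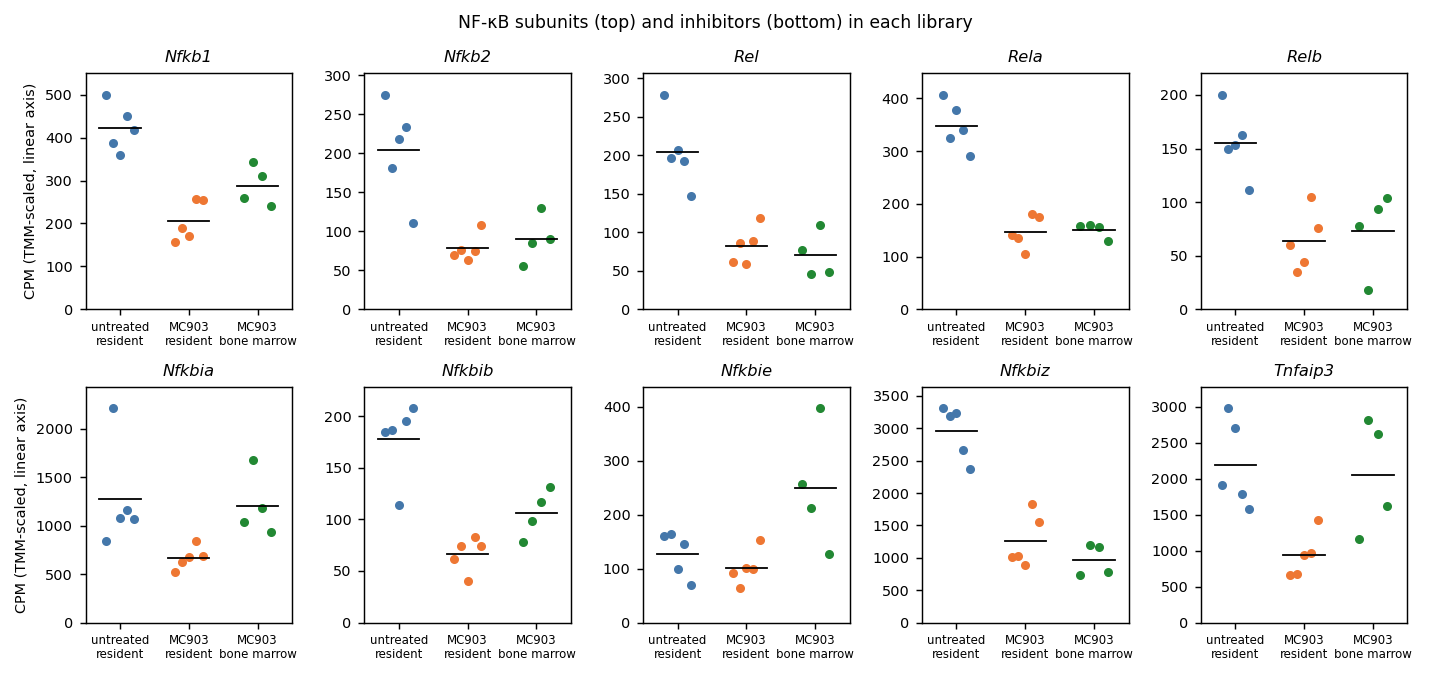
Each panel plots 1 gene, with the 3 groups on the x axis and TMM-scaled CPM on a linear y axis from 0; points are libraries in number order and lines are group means. Rela sits between 290.3 and 407 CPM in untreated libraries and between 105 and 181 CPM in the other 2 groups, whereas Nfkbie has its highest mean in the bone marrow group, at 127 to 397 CPM, with library 15 inside the range of both other groups.

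Among the inhibitors, Nfkbiz had the highest mean CPM in both resident groups, and Tnfaip3 in the bone marrow group. Nfkbiz encodes IκBζ, which acts in the nucleus with p50 on secondary response genes. It was at 3314, 3188, 3231, 2667 and 2375 CPM in untreated libraries and at 1005, 1021, 892, 1833 and 1556 CPM after MC903. No MC903 library reached the untreated range, and the log2 fold change was -1.22 ± 0.207 (edgeR adjusted p = 0.00164).

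Tnfaip3 was at 1909, 2982, 2698, 1793 and 1582 CPM in untreated libraries and at 657, 678, 934, 969.9 and 1428 CPM after MC903. The groups did not overlap, with library 10 nearest to the untreated range, and the log2 fold change was -1.23 ± 0.255 (edgeR adjusted p = 0.00910). Nfkbib, the IκBβ gene, was at 184, 187, 114, 195 and 208 CPM and fell to 61.2, 73.8, 40.1, 82.5 and 73.7 CPM. This was the steepest estimate of the 10, -1.42 ± 0.229 (edgeR adjusted p = 0.00104), and its groups did not overlap.

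Nfkbia, the IκBα gene that resynthesises the inhibitor after a pulse of NF-κB activity, behaved less uniformly. Untreated libraries held 838, 2214, 1081, 1160.2 and 1068 CPM, and MC903 libraries 525, 622, 679.5, 839.6 and 682 CPM. Library 2 stood far above the other untreated libraries, and library 9 was marginally above untreated library 1. The log2 fold change was -0.92 ± 0.229 (edgeR adjusted p = 0.0350). Without library 2 it was -0.61 and no longer passed (adjusted p = 0.119), and when each of the 10 libraries was dropped in turn the gene passed in 2 fits, those without untreated library 1 or 5, with adjusted p of 0.0316 to 0.157 over the 10.

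Nfkbie, the IκBε gene, was the inhibitor with no called difference. It was at 161, 163, 98.6, 145 and 69.5 CPM in untreated and at 92.2, 64.6, 101, 99.2 and 153 CPM in MC903 libraries. The groups overlapped over most of their range, with an estimate of -0.32 ± 0.289 (edgeR adjusted p = 0.763).

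The highest MC903 value was in library 9 for 6 genes and in library 10 for the other 4. These 2 libraries were both above libraries 6, 7 and 8 for 7 of the 10 genes, and they remained below every untreated library for 8 of 10. They had the fewest genes detected of the MC903 resident group. Without libraries 7, 8 and 15, 4 of the 8 genes still passed (Nfkb1, Rela, Nfkbib and Nfkbiz), while Nfkb2, Rel, Nfkbia and Tnfaip3 had edgeR adjusted p of 0.0676, 0.0737, 0.191 and 0.120. Without library 6 as well, which leaves libraries 9 and 10 alone against the 5 untreated, no member passed the edgeR test, 8 had an unadjusted p under 0.05, and 93 of all genes passed, against 473. In that fit Rela was at -0.97 (edgeR adjusted p = 0.0576), Nfkbib at -1.19 and Nfkb1 at -0.73. The summed level of 15 immediate early genes, which respond within minutes to many stimuli, tissue dissociation included, moved with this pattern. It was 35223 to 59595 CPM in untreated libraries, highest in library 2, then 17783 to 22002 CPM in libraries 6 to 8 and 33885 and 35644 CPM in libraries 9 and 10. Its part in the differences of the NF-κB genes was not tested.

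The second comparison set the bone marrow group against resident cells of the same treatment. Of the 5 inhibitors 2, Nfkbie and Tnfaip3, were higher in the bone marrow group. No subunit passed the edgeR test, 1 of the 5 had an unadjusted p under 0.05, and limma voom called Nfkb1 (adjusted p = 0.0379). Across all genes 2.27% were called, 1.32% higher and 0.952% lower. This direction depends on the scaling, since 277 genes were higher and 200 lower with TMM, 167 and 242 with DESeq2 size factors, and 178 and 254 with TMM from abundant genes. The median log2 fold change was 0.20 for the subunits and 0.84 for the inhibitors, against -0.28 for all genes. Leaving out bone marrow library 15 and filtering genes anew gave medians of 0.10, 0.95 and -0.84 in the same order. When the same genes were tested as with all libraries they were -0.016, 0.83 and -0.56, so that the subunit median changed sign.

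Nfkbie was at 256, 212, 397 and 127 CPM in bone marrow libraries 11, 13, 14 and 15, against 64.6 to 153 CPM in MC903 resident cells. Library 15 lay inside the resident range and the other 3 above it. The log2 fold change was 1.28 ± 0.306, or 2.43-fold (edgeR adjusted p = 0.0293). Tnfaip3 was at 1157, 2821, 2614 and 1623 CPM, against 657 to 1428 CPM in MC903 resident cells, with library 11 inside the resident range. Its log2 fold change was 1.13 ± 0.266, or 2.19-fold (edgeR adjusted p = 0.0259).

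Neither call was stable to single libraries: each passed in 3 of the 9 fits with a single library dropped. The Nfkbie call was lost without library 6, 7, 8, 9, 11 or 14 (edgeR adjusted p up to 0.123, and 0.0532 without library 11, the one with high basophil markers), and the Tnfaip3 call without library 6, 7, 8, 9, 13 or 14 (edgeR adjusted p up to 0.104). Fitting only the 2 groups compared gave edgeR adjusted p of 0.0590 and 0.0692. Without libraries 7, 8 and 15 the values were 0.0644 and 0.131 in edgeR, with log2 fold changes of 1.31 and 1.09.

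Nfkbia was at 1035, 1676, 1182 and 934 CPM in the bone marrow group, all above the highest MC903 resident library at 839.6 CPM. This complete separation, seen in 4% of all genes in the higher direction, came with a log2 fold change of 0.84 ± 0.240 that did not pass (edgeR adjusted p = 0.0734), and it passed in 2 of 8 alternatives, with no filter and in voom. Without library 15 it passed when genes were filtered anew (edgeR adjusted p = 0.0312) and not when the same genes were tested as with all libraries (0.83, edgeR adjusted p = 0.0684). Nfkbib had an estimate of 0.67 (edgeR adjusted p = 0.144), and Nfkbiz one of -0.38 (edgeR adjusted p = 0.377).

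Rela was at 158, 160.2, 155 and 130.2 CPM, within the MC903 resident range in each library. Its estimate was 0.03 ± 0.186 (edgeR adjusted p = 0.956), so an equal level and a modest difference in either direction are both within its error. Nfkb1 was at 259, 343, 310.3 and 239.7 CPM with an estimate of 0.48 (edgeR adjusted p = 0.187). Nfkb2 (0.20), Relb (0.20) and Rel (-0.24) did not pass either.

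**Figure D2:**
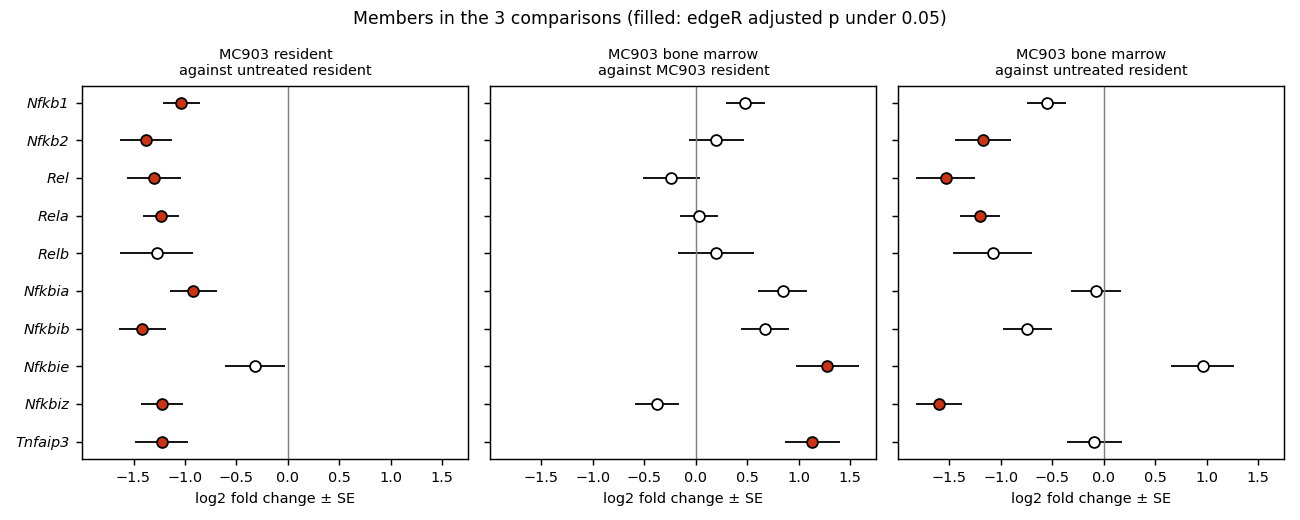
The x axes are log2 fold changes, first group minus second, and bars are standard errors; filled points passed the edgeR test at an adjusted p under 0.05. In the left panel all 10 estimates are negative and 8 are filled, in the middle panel Nfkbie (1.28) and Tnfaip3 (1.13) are filled, and in the right panel Nfkb2, Rel, Rela and Nfkbiz are filled on the negative side.

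The third comparison set the bone marrow group against untreated resident cells. It shares its untreated libraries with the first comparison and its bone marrow libraries with the second, so the 3 sets of values are not independent. Of the 10 genes 4 fell, Nfkb2, Rel, Rela and Nfkbiz, and none rose. Across all genes 6.87% were called, 3.49% higher and 3.37% lower. The median log2 fold change was -1.18 for the subunits and -0.09 for the inhibitors, against -0.14 for all genes. Leaving out bone marrow library 15 and filtering genes anew gave medians of -1.18, -0.0022 and -0.62 in the same order. When the same genes were tested as with all libraries they were -1.33, -0.16 and -0.60.

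Nfkbiz was at 730.3, 1202, 1175 and 787 CPM in the bone marrow group, under the lowest untreated value of 2375 CPM. It was 3.03-fold lower, with a log2 fold change of -1.60 ± 0.226 (edgeR adjusted p = 9.5e-05). Rel was at 77.2, 45.9, 109.8 and 48.1 CPM, below the untreated minimum of 147 CPM, and 2.91-fold lower (log2 fold change -1.54 ± 0.286, edgeR adjusted p = 0.00152). Rela was 2.31-fold lower with no overlap (log2 fold change -1.20 ± 0.191, edgeR adjusted p = 0.000324).

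Nfkb2 was at 55.9, 84.8, 129 and 90.0 CPM, with library 14 above the lowest untreated library. Its log2 fold change was -1.18 ± 0.272 (edgeR adjusted p = 0.00911). Nfkb1 and Relb lay below the untreated range in every bone marrow library without passing, at -0.56 (edgeR adjusted p = 0.0911) and -1.08 (edgeR adjusted p = 0.0991), and each passed in 3 of 8 alternatives, the Wald test and voom among them. Without library 15 Relb had an edgeR adjusted p of 0.0568 when genes were filtered anew and of 0.0388 with the same genes tested. Relb varied most here, at 77.9, 18.0, 94.0 and 104 CPM, with library 13 the lowest of all 14 libraries.

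The inhibitors other than Nfkbiz did not pass. Nfkbia (-0.08 ± 0.241, edgeR adjusted p = 0.912) and Tnfaip3 (-0.09 ± 0.267, edgeR adjusted p = 0.897) had estimates near 0, with untreated and bone marrow means of 1272 ± 539.9 and 1207 ± 329 CPM for Nfkbia and of 2193 ± 611 and 2054 ± 794 CPM for Tnfaip3. Both estimates changed sign without untreated library 2, to 0.22 and 0.036, and that of Tnfaip3 also without library 11 (0.092) and that of Nfkbia without library 15 when genes were filtered anew (0.026), though not with the same genes tested as with all libraries (-0.14). Nfkbib was at 78.1, 98.2, 116 and 131 CPM, with an estimate of -0.74 (edgeR adjusted p = 0.0704), and passed in 4 of 8 alternatives and without library 3 (edgeR adjusted p = 0.0298) or 15 (0.0487). Nfkbie was the only member with a positive estimate, 0.96 (edgeR adjusted p = 0.0641). It passed in 6 of 8 alternatives (adjusted p from 0.00589 to 0.109 over the 8), among them the DESeq2 Wald test and limma voom. When single libraries were dropped it passed in 1 of 9 fits, the one without library 15 (edgeR adjusted p = 0.0130), with adjusted p up to 0.248.

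Summed over the class, the subunits were at 260.2 ± 44.1 CPM per kilobase in untreated cells (SD, n = 5), 109.6 ± 25.1 in MC903 resident cells (n = 5) and 121 ± 15.2 in the bone marrow group (n = 4). The inhibitor sums were 1806 ± 436, 860.4 ± 182 and 1358 ± 355 CPM per kilobase. The ratio of inhibitor to subunit sums was 7.11 ± 2.13 in untreated cells, 7.93 ± 1.03 after MC903 and 11.3 ± 3.34 in the bone marrow group. Untreated library 2, at 10.6, lay inside the bone marrow range of 9.25 to 16.3, and MC903 library 8, at 9.62, did so as well. These ratios are a description of transcript levels and carry no test.

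The shares of Rela, Nfkb1 and Rel in the subunit sum were also read. Rela made up 43.8 ± 2.57% of the subunit sum in untreated cells, 43.9 ± 2.24% after MC903 and 41.0 ± 5.91% in the bone marrow group. Nfkb1 made up 13.7 ± 2.23%, 15.6 ± 1.45% and 19.9 ± 4.0%, with bone marrow libraries at 17.3% to 25.9% and untreated libraries at 11.1% to 17.2%. Rel made up 10.4 ± 0.792%, 10.1 ± 1.62% and 7.60 ± 2.38%. These shares carry no test.

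**Figure D3:**
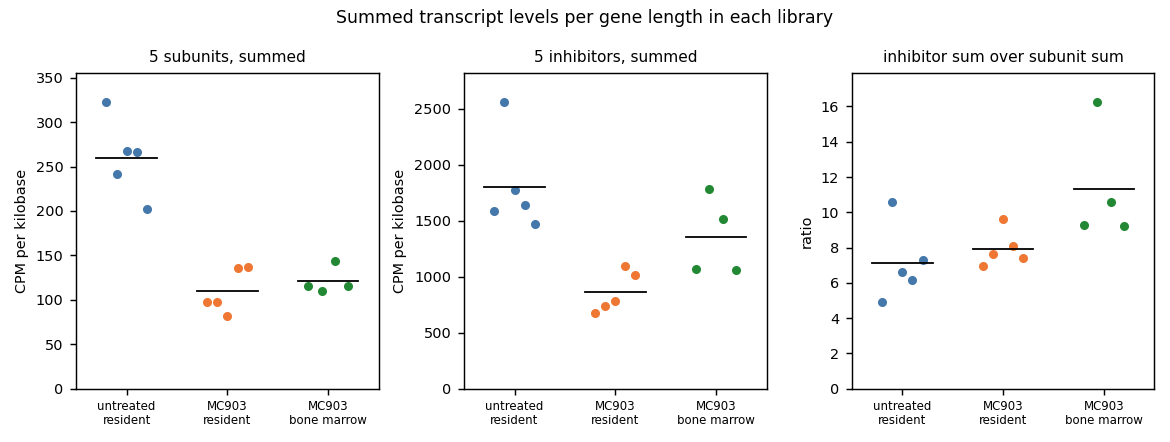
The panels plot, for each library, the summed CPM per kilobase of the 5 subunits, that of the 5 inhibitors and their ratio, on linear axes from 0 with group means as lines. The subunit sums separate untreated libraries (201.7 to 323) from both MC903 groups (81.2 to 143), and the highest ratio is 16.3, in bone marrow library 13.

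Genes of the IκB kinases and of NIK were examined next, from a list of 6 genes (Chuk, Ikbkb, Ikbkg, Ikbke, Tbk1 and Map3k14). None passed in any of the 3 comparisons by the edgeR test, where 2, 1 and 2 of the 6 had an unadjusted p under 0.05. Chuk, the IKKα gene, was at 69.7 CPM in untreated, 71.2 CPM in MC903 resident and 70.2 CPM in bone marrow cells. Its estimate against untreated cells was 0.03 ± 0.281 after MC903. Ikbkb, the IKKβ gene, had estimates of 0.21 ± 0.232 and 0.55 ± 0.244 against untreated cells. Map3k14, the kinase NIK of the non-canonical arm, had a wide estimate of -1.99 ± 0.666 after MC903 (edgeR adjusted p = 0.143).

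Of the 2 other nuclear IκB-like genes, Bcl3, whose protein binds p50 and p52 dimers, had positive estimates where most members had negative ones. It was at 7.74, 4.62, 12.6, 7.92 and 6.56 CPM in untreated libraries, at 16.3, 10.5, 18.2, 39.0 and 31.4 CPM after MC903 and at 25.4, 33.1, 29.8 and 35.4 CPM in the bone marrow group. The bone marrow libraries lay above all untreated ones, with a log2 fold change of 1.97 ± 0.430 (edgeR adjusted p = 0.00593). The rise after MC903 in resident cells, 1.55 ± 0.410, passed by a small margin (edgeR adjusted p = 0.0499) and its groups overlapped. Nfkbid, the IκBNS gene, did not pass, with estimates of -0.78 and -0.68 against untreated cells.

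Among 24 adaptors and ubiquitin ligases, 23 were tested. After MC903 in resident cells 1 rose (Traf1) and 4 fell (Bcl10, Birc3, Traf6 and Ripk1), with a median of -0.31. Traf1, an adaptor of TNF receptors that is itself an NF-κB target, was at 11.1 to 24.4 CPM in untreated libraries, 39.5 to 61.8 CPM after MC903 and 54.6 to 139 CPM in the bone marrow group. The 3 ranges show no overlap of untreated libraries with either other group, and the log2 fold changes against untreated cells were 1.60 ± 0.296 (edgeR adjusted p = 0.00360) and 2.61 ± 0.316 (edgeR adjusted p = 1.83e-05). Bcl10, which links antigen receptors to the IκB kinases, fell by 1.39 ± 0.232 on the log2 scale after MC903 (edgeR adjusted p = 0.00145). Traf6, the ubiquitin ligase downstream of IL-1 and Toll-like receptors, fell by 1.52 ± 0.352 (edgeR adjusted p = 0.0206), and Birc3, which restrains NIK, fell by 1.31 ± 0.303 (edgeR adjusted p = 0.0200). Ripk1, the TNF receptor kinase, fell by 1.03 with overlapping groups.

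In the bone marrow group against untreated cells Traf1 rose, and Bcl10 (-0.83) and Traf5 (-1.42 ± 0.321, edgeR adjusted p = 0.00783) fell. No gene of the list passed between the bone marrow and MC903 resident groups by the edgeR test, and 6 had an unadjusted p under 0.05. Without library 15 Traf1 and Rbck1, a subunit of the linear ubiquitin ligase, were higher and passed there (edgeR adjusted p = 0.0242 and 0.0148, or 0.0430 and 0.0322 with the same genes tested as with all libraries). Against untreated cells Bcl10 was at -0.84 without library 15 and did not pass after filtering anew (edgeR adjusted p = 0.0668), and at -1.01 with the same genes tested, where it passed (edgeR adjusted p = 0.0265).

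Of 8 deubiquitinases and their partners only Tax1bp1 passed, in both comparisons with untreated cells, and between the MC903 groups 0 of 8 passed or had an unadjusted p under 0.05 by the edgeR test. Its protein is an adaptor through which A20 acts on its substrates. It was at 2147, 1501, 1679, 1784 and 1819 CPM in untreated libraries, at 659.6, 596, 570.2, 754 and 715 CPM after MC903 and at 599, 583, 875 and 534 CPM in the bone marrow group. Both MC903 groups lay far below the untreated range and overlapped each other, with log2 fold changes of -1.43 ± 0.165 (edgeR adjusted p = 3.65e-05) and -1.46 ± 0.178 (edgeR adjusted p = 1.89e-05). Cyld, which removes the chains that activate the kinases, did not pass (-0.71 ± 0.410 after MC903, edgeR adjusted p = 0.537).

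Of 17 receptors that signal to NF-κB, 15 were tested. After MC903 Tnfrsf12a, the receptor of TWEAK, fell and Tnfrsf13b, the receptor TACI, rose. Tnfrsf12a was at 62.3 to 152 CPM in untreated, 19.9 to 36.3 CPM in MC903 resident and 48.8 to 97.6 CPM in bone marrow libraries. It fell by 1.83 ± 0.276 on the log2 scale after MC903 (edgeR adjusted p = 0.000632), and it was 1.25 ± 0.284 higher in the bone marrow group than in MC903 resident cells (edgeR adjusted p = 0.0209), the only receptor called there. Tnfrsf13b rose by 0.91 ± 0.235 after MC903 (edgeR adjusted p = 0.0432, groups overlapping) and by 0.92 ± 0.246 in the bone marrow group against untreated cells (edgeR adjusted p = 0.0257, and without library 15 0.0230 when genes were filtered anew and 0.0524 with the same genes tested). Il18rap, a chain of the IL-18 receptor, was at 28.6, 32.3, 6.40 and 7.88 CPM in the bone marrow group against at most 0.62 CPM in untreated libraries (edgeR adjusted p = 0.00662). Tnfrsf1b did not pass against untreated cells with all libraries. Without library 15 it was lower in the bone marrow group and passed (-1.11, edgeR adjusted p = 0.0461), also with the same genes tested (-1.26, edgeR adjusted p = 0.0281).

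**Figure D4:**
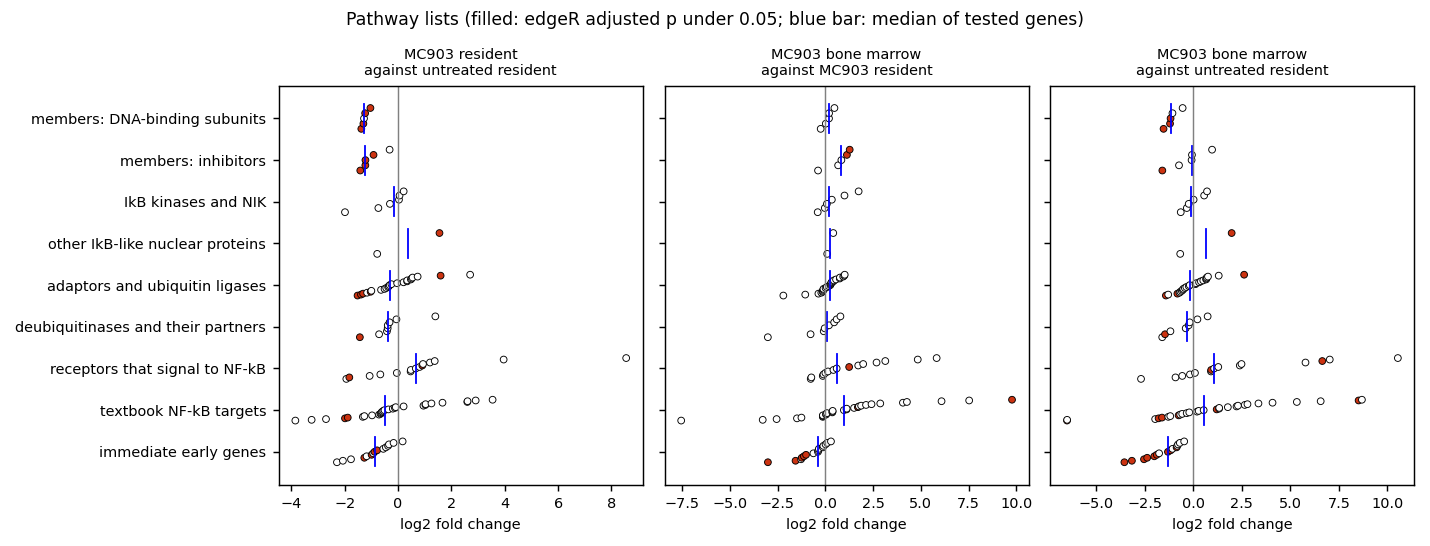
Each point is a gene of a pathway list, its x position the log2 fold change of the comparison named above the panel; filled points passed the edgeR test and blue bars are medians over the genes tested. The subunits have a median of -1.28 in the left panel and -1.18 in the right panel, and the kinase list has no filled point in any panel.

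Textbook targets of NF-κB were read from a list of 30 genes, of which 29 were tested. Targets placed in other lists were not counted here. Among those, Traf1 rose after MC903 in resident cells (log2 fold change 1.60) and Nfkbia fell (-0.92). In the list of 30 genes 2 fell after MC903 in resident cells, Tnf and Plau, and none rose. The median was -0.51 against 0.24 over all genes. The median of the same list was 0.97 between the bone marrow and MC903 resident groups (-0.28 over all genes), where Ier3 and Cd83 rose and none fell, and 0.53 between the bone marrow and untreated groups (-0.14 over all genes), where 2 rose and 4 fell. Both medians moved with bone marrow library 15, the one with high macrophage and dendritic cell markers. Without it they were 0.16 (-0.84 over all genes) and -0.27 (-0.62 over all genes), or 0.075 and -0.43 when the same genes were tested as with all libraries, so that the second changed sign. The calls without library 15 were 2 higher (Ier3 and Cd83) and 1 lower (Ccnd1) against MC903 resident cells, and 2 higher and 4 lower against untreated cells. The part of the other cell types' RNA in the list's values was not tested. Tnf, the cytokine whose receptor feeds back into the pathway, was at 497, 638, 566, 405 and 392 CPM in untreated libraries, at 107, 108, 133, 172 and 107 CPM after MC903 and at 126, 171, 142 and 211 CPM in the bone marrow group. No library of either MC903 group reached the untreated range. The log2 fold changes against untreated cells were -1.99 ± 0.207 (edgeR adjusted p = 1.28e-05) and -1.62 ± 0.221 (edgeR adjusted p = 6.7e-05). Plau, the urokinase gene, was 3.70-fold lower after MC903 and 3.47-fold lower in the bone marrow group (edgeR adjusted p = 0.000902 and 0.00104).

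Ier3, an early response gene that limits cell death, separated the bone marrow group from both resident groups. It was at 1594, 2185, 1699 and 1381 CPM there, against 619 to 1038 CPM in untreated and 399 to 679 CPM in MC903 resident libraries. The log2 fold changes were 1.71 ± 0.206 against MC903 resident cells (edgeR adjusted p = 5.87e-05) and 1.20 ± 0.205 against untreated cells (edgeR adjusted p = 0.000699). Cd83, a membrane protein of activated dendritic and B cells, was at 18.7, 19.3 and 29.0 CPM in bone marrow libraries 11, 13 and 14 and at 509 CPM in library 15, against at most 0.505 CPM in MC903 resident and 1.35 CPM in untreated libraries. It passed in both comparisons (edgeR adjusted p = 0.0168 and 0.00939), and also without library 15 (edgeR adjusted p = 0.0112 and 0.0162). Against untreated cells Ccl2 (-0.76) and Ccnd1 also fell in the bone marrow group, Ccnd1 from 5.66 to 27.8 CPM in untreated libraries to at most 0.70 CPM. Il6 did not pass after MC903 (-1.32 ± 0.372, edgeR adjusted p = 0.0809).

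**Figure D5:**
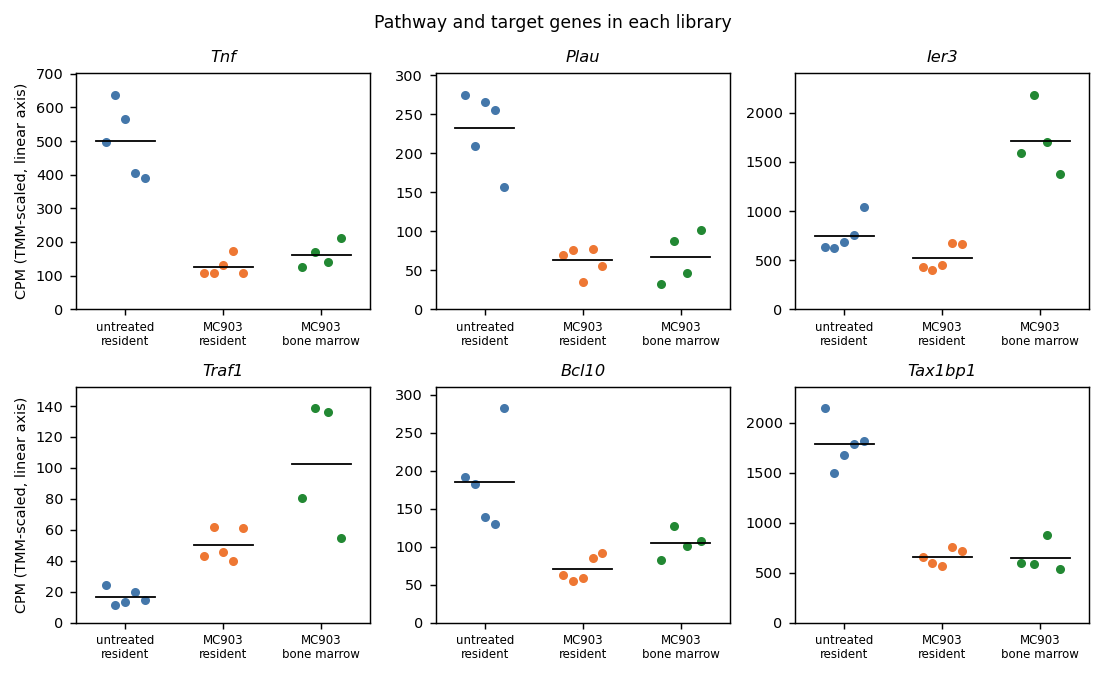
The 6 panels plot TMM-scaled CPM of Tnf, Plau, Ier3, Traf1, Bcl10 and Tax1bp1 in each library on linear axes from 0, with group means as lines. Tnf, Plau and Tax1bp1 are high in untreated libraries only, Traf1 is lowest there at 11.1 to 24.4 CPM, and Ier3 is highest in the bone marrow group at 1381 CPM or more.

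The immediate early genes, a list of 15 genes outside the pathway, are given as a comparison for genes that respond to stimulation. They fell in 4 cases after MC903 in resident cells (Klf6, Egr1, Junb and Egr3), in 5 between the bone marrow and MC903 resident groups (Klf6, Egr3, Klf2, Ier2 and Egr1) and in 9 between the bone marrow and untreated groups, and none rose. Without library 15 and with genes filtered anew, 4 fell between the MC903 groups. Atf3 passed there (edgeR adjusted p = 0.00597), and Ier2 and Egr1 did not (edgeR adjusted p = 0.0640 and 0.0805). With the same genes tested as with all libraries 6 fell, Atf3, Ier2 and Egr1 among them. With all libraries the medians of the immediate early genes were -0.88, -0.38 and -1.31. Those of the 5 inhibitors were -1.22, 0.84 and -0.09 and those of all genes tested 0.24, -0.28 and -0.14. The middle value of the immediate early genes thus lay close to that of all genes. Without library 15 these values were -0.52 and -0.84 when genes were filtered anew, and -0.65 and -0.56 with the same genes tested. Klf6 was at 5368 ± 472, 2691 ± 931 and 918 ± 225 CPM in the 3 groups, a further fall between MC903 resident and bone marrow cells of 1.56 on the log2 scale (edgeR adjusted p = 0.000381). Nfkbie and Tnfaip3 were higher in that comparison. In such pools of cells a lower level can stem from fewer cells with the transcript or from less transcript per cell, and these cannot be told apart.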

How the data were processed

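The deposited table holds raw read counts per gene, with a gene length (the bases of its exons) as the other deposited value used. Per the submitters' processing notes, STAR and featureCounts were used with the mm10 build; versions, strand setting and read trimming were not given in the sources used here. All 14 count columns were mapped to samples by their titles, and gene identifiers were matched without version to symbols (55394 of 55487).

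Counts were tested with edgeR 4.0.16 in R 4.3.3 (TMM factors, filterByExpr with a minimum count of 10 and total of 15, robust quasi-likelihood fit of 3 groups over 14 libraries, no covariate), with Benjamini-Hochberg adjustment over 21014 genes and calls at 0.05. CPM are counts scaled to the library total multiplied by its TMM factor. Standard errors were taken from the size of the log2 fold change and the F statistic, as their quotient with the root of F. The procedure was tested on simulated data, in which the planted changes were larger than any called for the members. Its sensitivity at the size of the members' changes was therefore not tested.

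The 10 genes and all lists were chosen with earlier results of these data known. From the other lists, genes are named where they passed, their groups did not overlap and the higher mean was at least 10 CPM, at most 4 per list and comparison. Ripk1, Bcl3 and Tnfrsf13b after MC903, Ccl2, Egr1 between the MC903 groups, genes given without library 15, and genes given as not passing were named after their values were seen. Genes most like a member had a mean of at least 20 CPM and correlations on log2 CPM with a prior count of 2. Alternatives were DESeq2 1.42.0 (size factors, and its Wald test), limma 3.58.1 voom with quality weights, TMM from abundant genes, no filter, a fit of only the groups compared, libraries left out singly, and libraries 7, 8 and 15 left out; leaving out library 6 as well, and the lists without library 15, were added after seeing the data.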

Additional observations from a re-analysis of the deposited data

Results flagged for a closer look

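In 4 of the 30 sets formed by a gene and a group, 1 library stood apart from the rest of its group by Dixon's criterion; about 1 in 20 sets does so by chance, or 1.5 of 30. Nfkbia was at 2214 CPM in untreated library 2, against 838 to 1160.2 CPM in the other 4. Nfkbib was at 114 CPM in untreated library 3, against 184 to 208 CPM. Nfkb2 was at 108 CPM in MC903 resident library 10, against 63.3 to 75.6 CPM. Rela was at 130.2 CPM in bone marrow library 15, against 155 to 160.2 CPM in the other 3. Library 2 also had the highest summed level of immediate early genes, 59595 CPM, and library 15 the highest summed level of macrophage and dendritic cell markers, 7824 CPM; their part in these values was not tested.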

How the results depend on the processing

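For resident cells after MC903 (473 genes called, 8 members), the DESeq2 Wald test called 1062 genes and limma voom 1358, each with 9 members; without libraries 7, 8 and 15 the counts were 253 genes and 4 members, and without library 6 as well 93 and 0. Leaving out single libraries gave 312 to 516 genes and 7 to 8 members. For the bone marrow against the MC903 resident group (477 genes, 2 members), no filter called 748 genes, the Wald test 1710, voom 2017 and the fit of only these groups 315; without libraries 6, 7, 8 and 15 there were 191. Voom called 4 members, the fit of only these groups 0, and both sets without several libraries 0; single libraries left out gave 302 to 704 genes and 0 to 3 members. For the bone marrow against the untreated group (1443 genes, 4 members), the Wald test called 2707 genes and 8 members and voom 2194 and 8, in both cases 1 higher and 7 lower. DESeq2 size factors and TMM from abundant genes moved the median of all genes from 0.24 to 0.40 and 0.45 after MC903, and from -0.28 to -0.43 and -0.43 between the MC903 groups. Under both scalings Nfkbia after MC903 no longer passed (adjusted p = 0.0636 and 0.0848).

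Reversals concerned estimates that passed under no alternative. Between the MC903 groups Rela turned to -0.11 with DESeq2 size factors, -0.11 with TMM from abundant genes, -0.11 in the Wald test, -0.068 with only these groups, -0.086 without libraries 7, 8 and 15 and -0.18 without library 6 as well, and ranged from -0.084 to 0.10 with single libraries left out. Relb turned to -0.029 in voom and to -0.36 and -0.52 without those sets of libraries (single libraries -0.012 to 0.50), and Nfkb2 to -0.032 without the larger set (single libraries -0.023 to 0.34). Against untreated cells Nfkbia in the bone marrow group turned to 0.015 and 0.019 without those sets (single libraries -0.28 to 0.22), and Tnfaip3 ranged from -0.29 to 0.092. The cause was not tested. No paired analysis was possible because the libraries are numbered in 1 running series and the groups share no number.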

Other observations

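For each of the 9 members called in at least 1 comparison, which leaves out Relb, the genes whose levels followed it most closely over the 14 libraries were read from 6005 genes, as Pearson correlations of log2 CPM that describe these libraries and carry no test; the points share library depth, scaling and the same 3 groups. Rela was followed most closely by Plek (r = 0.97), at 6398, 1409 and 1282 CPM in the untreated, MC903 resident and bone marrow groups, then by Wsb1 and Ccdc82 (both 0.96). Nfkbiz was followed by Ndrg1 (0.97), Ndel1 (0.96) and Ddx5 (0.95), and Rel by Rlim (0.96), Btaf1 (0.95) and Nedd9 (0.94). Nfkb1 was closest to Lmna (0.94), the gene of lamin A, at 9456, 3302 and 5775 CPM, and to Myc (0.94), at 139, 9.88 and 25.9 CPM. Lmna was also among the 3 closest to Nfkbib (0.92), after Oat and Cdc42se2 (both 0.93). Nfkb2 was closest to Ythdf3 (0.95). Nfkbia was closest to Csnk1d (0.82) and Tnfaip3 to Elf1 (0.90). Nfkbie, with its highest mean in the bone marrow group, was closest to Srebf2 (0.90), the sterol-responsive transcription factor gene, at 69.2, 45.4 and 132 CPM.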
